A study of Mus musculus with 39 samples.

Results

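Nitric oxide synthases and the enzymes that share or supply their substrate, L-arginine, were followed through mouse muscle regeneration and in 2 kinds of sorted cells. The 6 members, the synthases Nos1, Nos2 and Nos3, the arginases Arg1 and Arg2, and argininosuccinate synthase Ass1, were chosen by symbol, with earlier results of the same libraries known, and all 6 were found among the 55011 gene symbols of the count table. Because their levels in these libraries had been seen when they were chosen, the members are described by their values, without tests. Genes around them in the pathway were tested.

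The study injured the tibialis anterior, a shin muscle, with cardiotoxin, a snake venom toxin that destroys muscle fibres, and asked what γδ T cells, a class of T lymphocyte, contribute to repair. Tcrd-DTR mice (DTR) express the receptor for diphtheria toxin in γδ T cells, which the toxin then removes. Whole tibialis anterior was taken 1, 3, 7 and 14 days after injury from DTR mice and wild-type mice (WT), and both received diphtheria toxin into the abdomen (n = 3 per group and day, but 2 DTR muscles at day 7). Further wild-type mice received recombinant IL-17A or PBS, into the abdomen and the muscle, and their injured muscle was taken at day 7 (n = 2 each). Satellite cells, the muscle stem cells, were sorted 1 day after injury from DTR and WT mice, both given diphtheria toxin (n = 3 each). Vγ6 cells, a γδ T cell subset, were sorted from wild-type muscle 3 days after injury and from the colonic lamina propria of untreated wild-type mice (n = 3 each), so tissue and injury differ together between these groups. The model takes away every γδ T cell, not 1 subset. No age of the mice is given in the labels. The 39 libraries fall into 14 groups of 2 or 3, described by the submitters as independent biological replicates.

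The libraries held 2372139 to 10974862 counts and 16951 to 35394 genes with a count. Depletion was checked by Trdc, the constant segment of the γδ T cell receptor, and was not visible in day 1 muscle: Trdc had 7 counts in the muscles labelled DTR and 8 in WT muscle. At day 3 it had 0 counts in DTR and 14 in WT muscle, at day 7 0 and 11, and at day 14 2 and 10. Satellite cell libraries held 5 Trdc counts in DTR and 31 in WT. Levels are given in CPM, counts scaled to a library total of 1000000, and a member's difference is that of the group means of log2 CPM with 2 counts added, ± its standard error. Intervals on ratios of few counts are exact binomial 95% intervals on counts summed over the libraries of a group. They leave out the variation between libraries. They also treat counts as independent molecules, which copies made by PCR are not.

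All 3 synthases make nitric oxide and citrulline from L-arginine, with haem and tetrahydrobiopterin as cofactors. Nos1, the neuronal form, is also the synthase of skeletal muscle fibres, where a splice form is anchored to the dystrophin complex under the membrane. Nos3 is the endothelial form, and both are switched by calcium and calmodulin. Nos2 is the inducible form of macrophages and other cells, switched on by microbial products and by cytokines such as interferon γ. Arginases split arginine to urea and ornithine, the start of polyamine and proline synthesis. Arg1 is cytosolic and is a marker of alternatively activated macrophages in the mouse, and Arg2 is mitochondrial. Ass1, with argininosuccinate lyase (Asl), turns citrulline back into arginine.

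A stretch of coding sequence shows what the 3 synthases have in common. It is the stretch around the cysteine that binds the haem iron, with that codon in capitals, read 5′ to 3′ on the gene's strand from GRCm38 with GENCODE M21. Each of the 3 stretches is spliced across an intron and lies within chr5:117896773-117897716 on the plus strand for Nos1, chr11:78935452-78936408 on the plus strand for Nos2 and chr5:24367581-24368824 on the plus strand for Nos3.
Nos1: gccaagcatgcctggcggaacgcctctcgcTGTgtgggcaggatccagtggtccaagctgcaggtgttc
Nos2: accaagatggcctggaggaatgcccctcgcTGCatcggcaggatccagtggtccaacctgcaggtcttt
Nos3: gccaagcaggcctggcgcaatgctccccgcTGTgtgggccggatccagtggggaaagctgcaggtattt
Nos1 shared 56 of the 69 bases with Nos2 and 57 with Nos3, and Nos2 shared 53 with Nos3.

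The second set shows why reads of Ass1 could be credited to another row of the table. Gm5424 on chromosome 10 matched the Ass1 transcript over 1240 bases at 99.5% identity. In the 90 coding bases shown, at chr2:31493154-31498214 on the plus strand for Ass1, across an intron, and at chr10:62071698-62071787 on the plus strand for Gm5424, the copies differ at 1 base, given in capitals.
Ass1: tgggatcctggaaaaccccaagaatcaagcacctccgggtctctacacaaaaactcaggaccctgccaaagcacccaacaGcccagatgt
Gm5424: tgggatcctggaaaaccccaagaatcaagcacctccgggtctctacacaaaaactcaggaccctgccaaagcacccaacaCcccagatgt
Over all libraries Gm5424 had 194 counts beside 4266 for Ass1, or 4.55%. Reads that match both copies equally were not measured here, so that share does not give the size of the uncertainty in the Ass1 values. Whether counting used strand is not given in the sources used here, so genes that overlap a member also leave its values uncertain. Nos3 had 2334 counts, and its overlapping neighbours Gm15587 and Atg9b had 323 and 264. Nos1 had 3725 counts beside 3 and 22 in its overlapping neighbours. Arg2 is the most exposed member, with 231 counts beside 22201 for Vti1b, which overlaps its end on the opposite strand over 285 bases.

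Nos2 (chr11:78920787-78960254, plus strand) was lower in DTR than in WT muscle at days 3 and 7. At day 3 it had 3.51, 6.60 and 2.73 CPM in the 3 DTR muscles, against 12.1, 12.2 and 8.10 CPM in the 3 WT muscles. The groups did not overlap, and the highest DTR muscle stayed under the lowest WT muscle. The difference was −1.33 ± 0.40 on the log2 scale, from 64 counts in DTR and 159 in WT muscle, which put Nos2 2.52-fold lower in DTR muscle. At day 7 it had 0.105 and 0.182 CPM in the 2 DTR muscles, against 1.28, 2.69 and 1.72 CPM in the 3 WT muscles. DTR muscle held 3 Nos2 counts in all and WT muscle 47, a ratio of 0.0744 (0.0148 to 0.231), again with no overlap. So low a level at day 7 was not particular to DTR muscle: the wild-type PBS muscles of that day had 0 and 0.143 CPM. The day 3 difference was −1.27 with the trimmed-mean scaling of the gene tests in place of library totals.

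At days 1 and 14 the Nos2 groups overlapped. Day 1 gave 2.72, 7.67 and 2.08 CPM in muscle labelled DTR, against 5.19, 5.73 and 4.88 CPM in WT muscle, where the second DTR muscle stood above all WT muscles and the other 2 below them. Day 14 gave 4.90, 10.1 and 4.92 CPM in DTR muscle, against 8.01, 4.91 and 3.64 CPM in WT muscle, from 62 counts in each group.

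**Figure D1:**
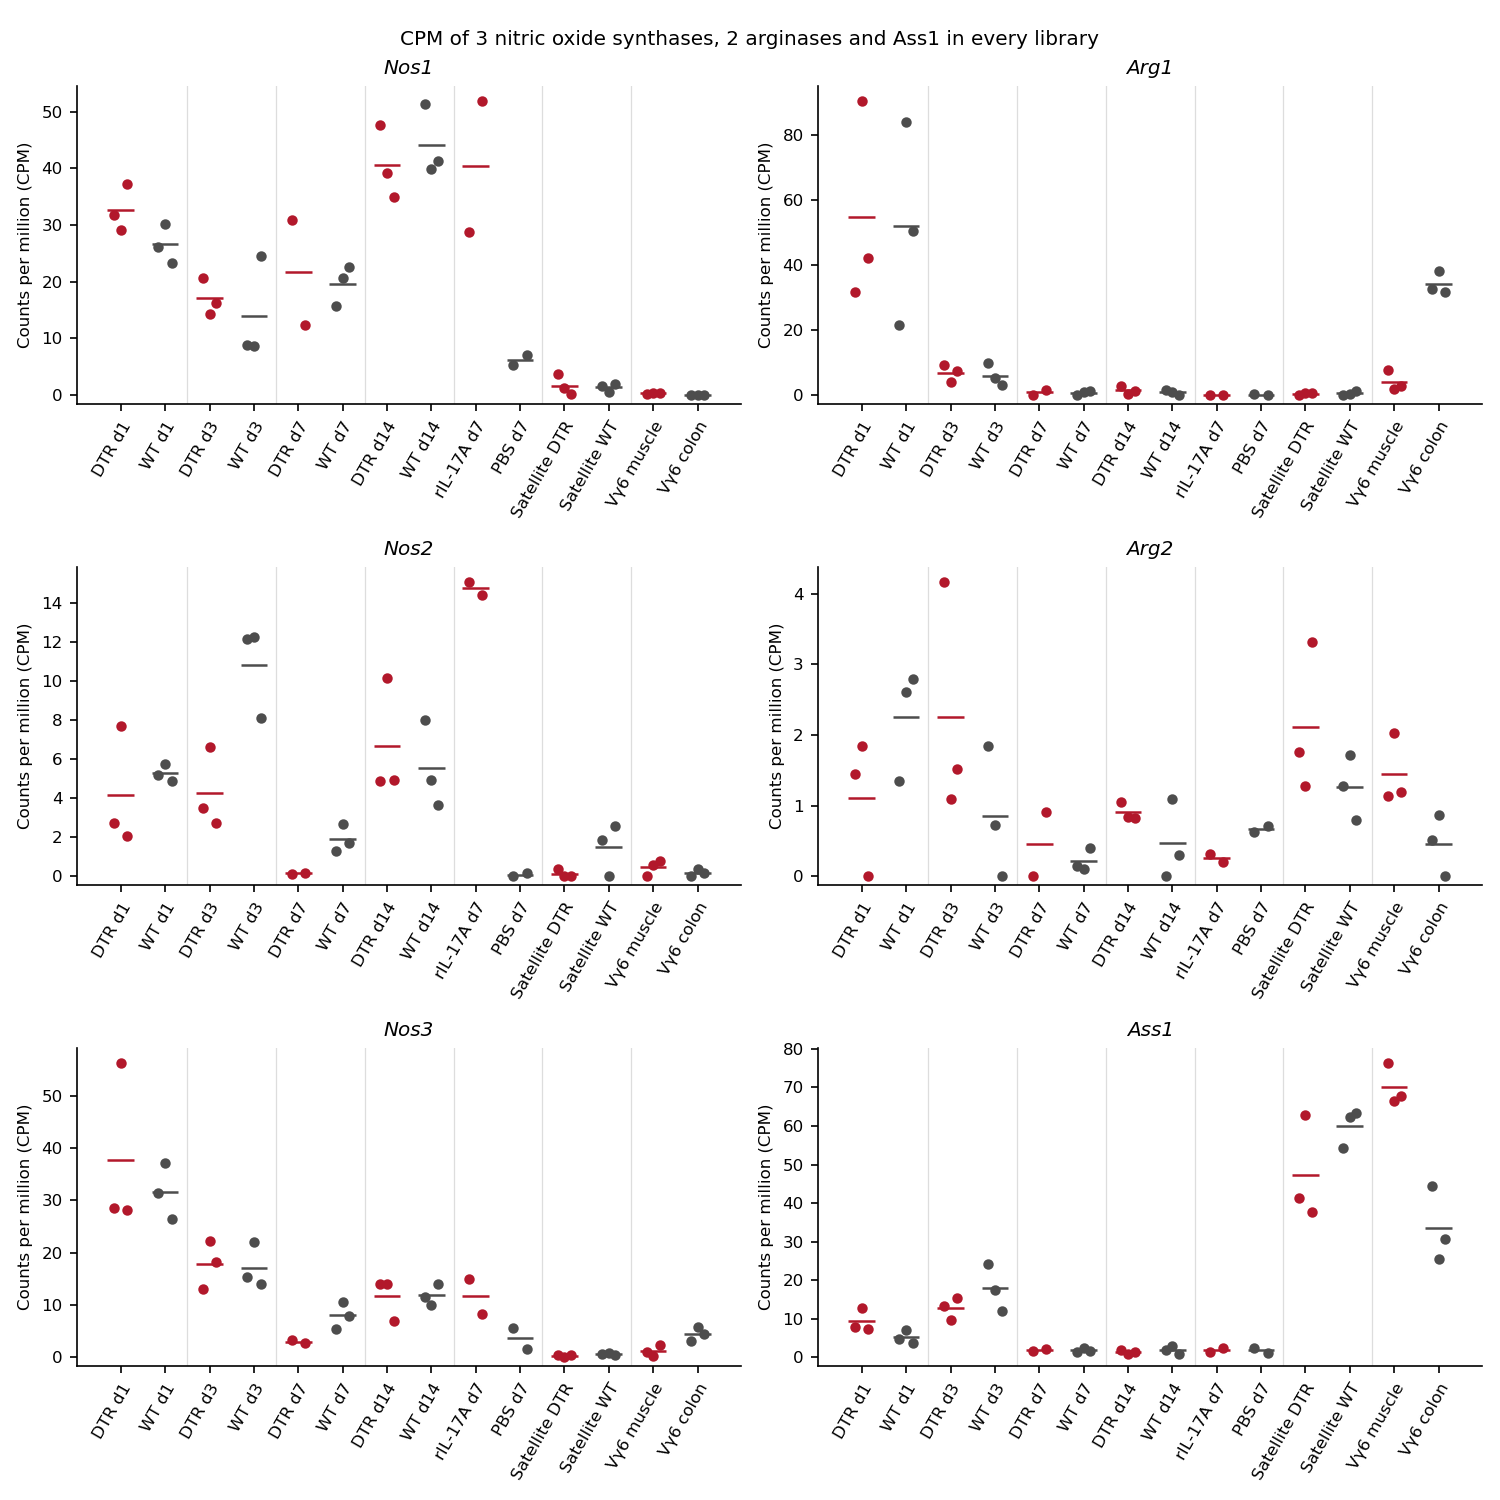
Level of each member in every library, in CPM (linear axes), by group, with DTR, rIL-17A and injured-muscle Vγ6 libraries in red to the left of their WT, PBS and colon counterparts in grey; each point is 1 library and each bar a group mean. Nos2 separates by colour at days 3 and 7 and after rIL-17A, where the treated muscles are at 15.1 and 14.4 CPM and the PBS muscles at 0 and 0.143 CPM.

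Recombinant IL-17A gave the highest Nos2 group mean of the 14 groups and PBS the lowest of the whole-muscle groups. Nos2 had 15.1 and 14.4 CPM in the 2 rIL-17A muscles, against 0 and 0.143 CPM in the 2 PBS muscles. The rIL-17A muscles held 166 Nos2 counts and the PBS muscles 1, a ratio of 221 with an interval of 39.1 to 8780. Both treated muscles were high and both PBS muscles were at or next to 0, but the group of 2 PBS muscles sets no usable upper limit on the ratio.

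Nos1 (chr5:117781032-117958840, plus strand) was also higher after rIL-17A. It had 28.7 and 51.9 CPM in rIL-17A muscles, against 5.40 and 7.01 CPM in PBS muscles, a difference of 2.58 ± 0.46 or 5.99-fold. The groups did not overlap, and the 2 treated muscles differed more from each other than the PBS muscles did. Nos3 (chr5:24364810-24384474, plus strand) had 14.9 and 8.34 CPM in rIL-17A muscles, against 5.65 and 1.57 CPM in PBS muscles. Its difference was 1.76 ± 0.91, or 3.38-fold, and was 2.58 without PBS replicate 1 and 0.94 without PBS replicate 3, although the lower treated muscle stood above the higher PBS muscle. With trimmed-mean scaling, which shifted the median of all genes by −0.15, the Nos1 difference was 2.45 and the Nos3 difference 1.64. Per kilobase of longest transcript the 3 synthases were at similar levels in rIL-17A muscle, with means of 3.98 CPM per kb for Nos1, 3.51 for Nos2 and 2.81 for Nos3.

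None of the other 3 members stood above both PBS muscles in both rIL-17A muscles. Arg1 had 1 count in the rIL-17A muscles and 3 in the PBS muscles, at or under the floor of 3 counts per group below which no fold is given. Arg2 had 3 counts in rIL-17A and 10 in PBS muscles, a ratio of 0.399 (0.0706 to 1.55), with both treated muscles under both PBS muscles. Ass1 had 1.24 and 2.29 CPM in rIL-17A muscles, against 2.51 and 1.00 CPM in PBS muscles, and the groups overlapped. In all, 4 of 6 members had groups that did not overlap, Nos1, Nos2, Nos3 and Arg2. But so did 69% of all genes tested in this comparison of 2 against 2, so the count itself says nothing particular about the members. Arg1 and Arg2 had too few counts to be among the genes tested, so that share does not cover them.

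Transcript length moved with this comparison. Across the 12742 genes with a length, the log2 change after rIL-17A had a Spearman correlation of 0.34 with the length of the longest transcript, a description in which genes are not independent replicates. With the genes cut by length into 4 equal classes, the median change was −0.56 in the shortest (57 to 2140 bases), −0.12 and 0.29 in the next, and 0.55 in the longest (4823 to 123179 bases). The 3 synthases, at 10123 (Nos1), 4192 (Nos2) and 4132 bases (Nos3), were the higher members, and Arg1, Arg2 and Ass1, at 1477, 1428 and 1696 bases, were the others. Nos1, at 2.58, lay above the 0.55 of its length class. The part of transcript length in these results was not tested.

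**Figure D2:**
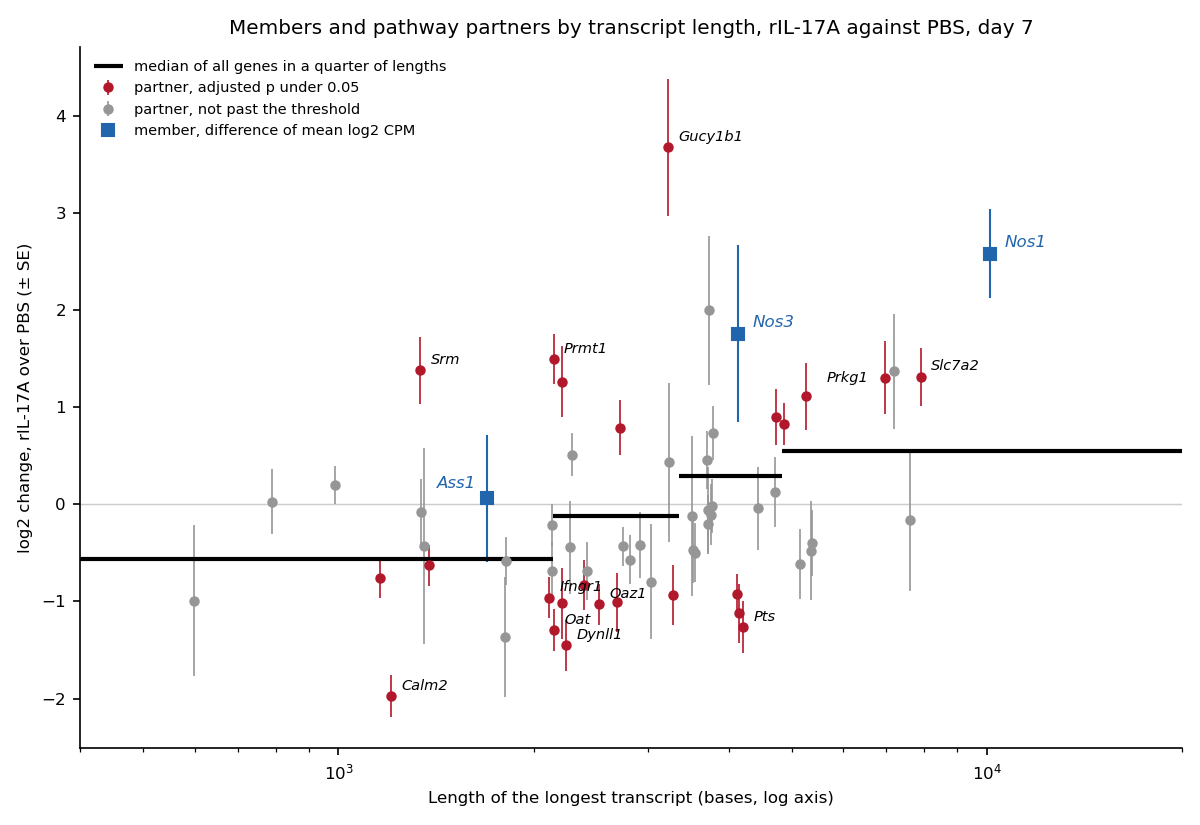
Change in rIL-17A against PBS muscle (log2, ± standard error) against the length of the longest transcript in bases (log axis), for Nos1, Nos3 and Ass1 (blue, differences of mean log2 CPM), partners past the threshold (red) and other partners (grey); black lines are the medians of all genes in 4 length classes, the outer ones running past the axis. The medians climb with length, Nos1 and Nos3 lie above theirs, and Nos2 is not drawn because PBS muscle held 1 count.

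Other cell types' markers were not uniformly higher or lower after rIL-17A. The 8 macrophage markers summed to 245 to 333 CPM in rIL-17A muscles and 500 to 650 CPM in PBS muscles, with 1 of 8 higher. The 8 neutrophil markers summed to 6.21 to 7.09 CPM in rIL-17A and 6.90 to 11.01 CPM in PBS muscles, with 3 of 8 higher. Summed macrophage markers were thus lower in the muscles where Nos2 was higher. The 8 endothelial markers summed to 461 to 494 CPM in rIL-17A and 360 to 374 CPM in PBS muscles, with 5 of 8 higher, and moved with Nos3. The 8 mature myofibre markers summed to 120156 to 132310 CPM in rIL-17A and 150038 to 161430 CPM in PBS muscles, with 5 of 8 higher. The 8 satellite cell markers summed to 294 to 371 CPM in rIL-17A and 235 to 240 CPM in PBS muscles, with 4 of 8 higher. Those of γδ T cells summed to 26.3 to 39.6 CPM in rIL-17A and 12.1 to 16.6 CPM in PBS muscles, with 2 of 8 higher. Both of these sums were higher in the muscles where Nos2 was higher. The part of these markers in the results was not tested, and in bulk tissue fewer cells of a type and less RNA per cell cannot be told apart.

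A second measure moved with Nos2 at day 7 and after rIL-17A. Olfactory and vomeronasal receptor genes, known from the sensory neurons of the nose, summed to 90.2 to 144 CPM in DTR and 260 to 1335 CPM in WT muscle at day 7, and to 19.6 to 24.6 CPM in rIL-17A and 11.7 to 14.2 CPM in PBS muscle. At day 3 their ranges overlapped, at 423 to 1078 CPM in DTR and 304 to 1467 CPM in WT muscle, while the Nos2 groups did not. At day 1 the sums did not overlap either, at 1027 to 2788 CPM in muscle labelled DTR and 489 to 818 CPM in WT muscle, where Nos2 overlapped with a lower mean in muscle labelled DTR and Ass1 was higher there. Across the 23 time-course libraries the Pearson correlation of these sums with the members was 0.66 for Nos2, 0.55 for Nos3 and 0.50 for Nos1, given as a description over libraries that share days and genotypes. The part of this signal in the day 1, day 7 and rIL-17A results was not tested.

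**Figure D3:**
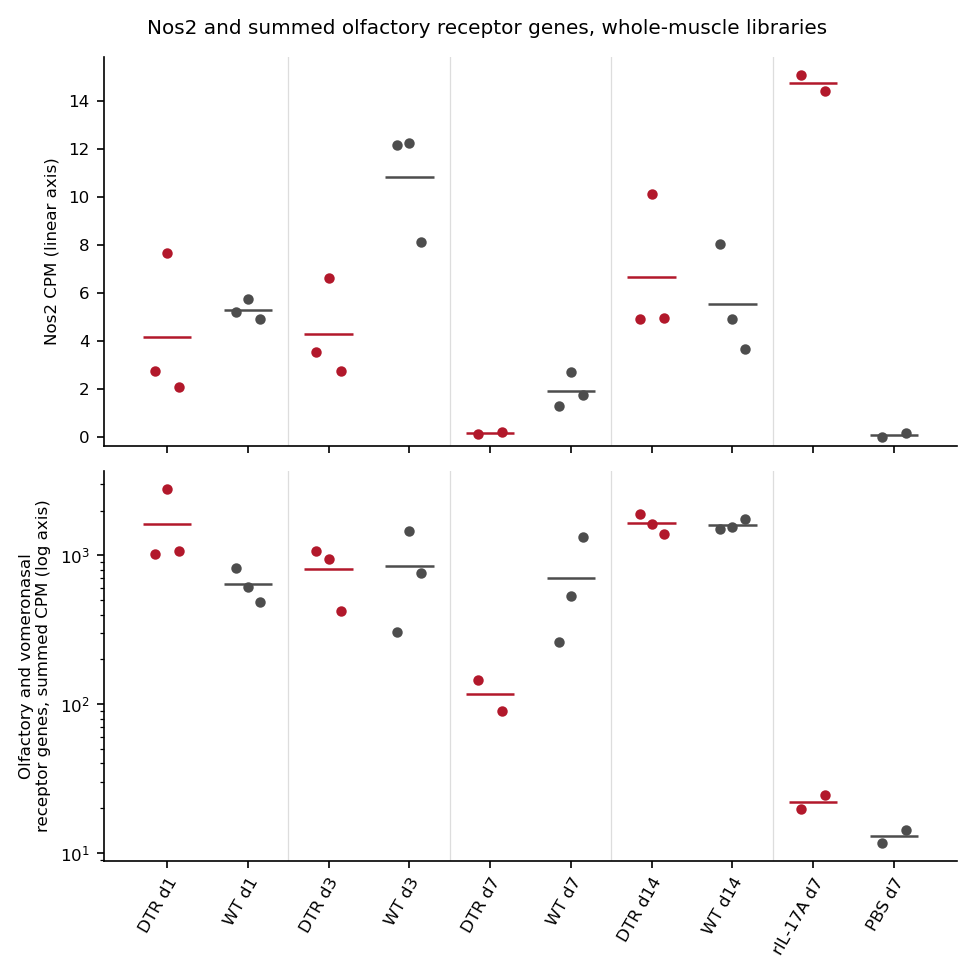
Nos2 level (upper panel, CPM, linear axis) and summed level of olfactory and vomeronasal receptor genes (lower panel, CPM, log axis) in each whole-muscle library, with DTR and rIL-17A libraries in red and WT and PBS libraries in grey, bars for group means. Both DTR muscles of day 7 are low in both panels, the day 3 groups separate in the upper panel and overlap in the lower one, and the rIL-17A muscles combine the highest Nos2 levels with receptor sums of 19.6 to 24.6 CPM.

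Nos3 was lower in DTR muscle at day 7, where it had 3.25 and 2.64 CPM in the 2 DTR muscles, against 5.40, 10.6 and 7.92 CPM in the 3 WT muscles. The difference was −1.29 ± 0.36, a fold of 0.408, and the groups did not overlap. The sum of 8 endothelial markers did overlap at that day, at 334 to 395 CPM in DTR and 292 to 408 CPM in WT muscle. With trimmed-mean scaling, which shifted the median of all genes by 0.24 at day 7, the Nos3 difference was −1.09. On the other days the Nos3 groups overlapped, with means of 37.7 ± 16.1 CPM in muscle labelled DTR and 31.7 ± 5.35 CPM in WT muscle at day 1 (SD, n = 3 each).

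Nos1 levels of DTR and WT muscle overlapped at days 3, 7 and 14 and at day 1. Day 1 gave 31.8, 29.1 and 37.3 CPM in muscle labelled DTR, against 26.2, 30.2 and 23.3 CPM in WT muscle. Day 14, with the highest Nos1 means of both genotypes, gave 47.6, 39.2 and 34.9 CPM in DTR muscle, against 51.3, 39.8 and 41.3 CPM in WT muscle. The day 7 DTR muscles stood apart from each other, at 30.9 and 12.4 CPM, on either side of the WT muscles at 15.6, 20.6 and 22.6 CPM.

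Arg1 (chr10:24915221-24927484, minus strand) was a day 1 gene in both genotypes. It had 31.8, 90.7 and 42.4 CPM in muscle labelled DTR at day 1, against 21.7, 84.3 and 50.5 CPM in WT muscle. Each genotype spanned a wide range and the groups overlapped almost entirely. At day 3 Arg1 had 9.44, 3.96 and 7.58 CPM in DTR muscle, against 9.84, 5.28 and 3.07 CPM in WT muscle, and from day 7 on no muscle was above 2.80 CPM. The day 3 mean lay under the day 1 mean by −2.85 ± 0.57 in DTR and by −2.97 ± 0.73 in WT muscle, and the days did not overlap. Per kilobase Arg1 averaged 37.2 CPM per kb at day 1 in muscle labelled DTR, above the 9.12 CPM per kb of Nos3, the highest synthase mean of that group.

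Ass1 (chr2:31470207-31520672, plus strand) followed a different course, with its highest muscle values at day 3. At that day it had 13.4, 9.68 and 15.5 CPM in DTR muscle, against 24.3, 17.5 and 12.01 CPM in WT muscle, and the groups overlapped. At day 1 it had 7.81, 12.7 and 7.38 CPM in muscle labelled DTR, against 4.74, 7.12 and 3.66 CPM in WT muscle. These day 1 groups did not overlap, though the gap between 7.38 and 7.12 CPM is small beside the spread, and the difference was 0.81 ± 0.35, a fold of 1.75. It was 0.67 with trimmed-mean scaling, which shifted the median of all genes by −0.14. GC content moved with this comparison, at a Spearman correlation of −0.35 with the log2 change across genes. Ass1, at 54.7% GC, was in the highest of 4 equal GC classes (53.5 to 73.7%). The median change of that class was −0.14, opposite in sign to the Ass1 difference. The part of GC content in the Ass1 values was not tested. Depletion was not visible in these day 1 libraries, so the label carries the direction of the Ass1 difference. From day 7 on no muscle was above 3.00 CPM.

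Across both genotypes the members thus differed in the day of their highest mean. Arg1 and Nos3 were highest at day 1 and Nos1 at day 14. Ass1 was highest at day 3, and so was Nos2 in WT muscle, while in DTR muscle Nos2 was highest at day 14. In DTR muscle some of these orders rest on groups that overlapped. There Ass1 at day 3 overlapped day 1, with a difference of 0.47 ± 0.31. Nos2 at day 14 overlapped day 1 and day 3, and Nos1 at day 14 overlapped day 1. A difference between the genotypes in the highest day was not tested. From day 3 to day 7 scaling matters most: trimmed-mean scaling raised the day 7 side by 0.79 in WT and 1.00 in DTR muscle. With it the WT change of Nos3 between these days was −0.32 in place of −1.09, that of Nos2 −1.61 in place of −2.34 and that of Ass1 −2.33 in place of −3.06. Nos1 read 1.19 in DTR muscle in place of 0.21 and 1.40 in WT muscle in place of 0.64. Arg2 (chr12:79130777-79156301, plus strand) was at most 4.17 CPM in any library of the series and gave no order of days.

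In the 4 day-wise comparisons, the members whose DTR and WT groups did not overlap were Ass1 at day 1, Nos2 at day 3, Nos2 and Nos3 at day 7 and none at day 14. Over all genes tested, the groups did not overlap for 10.6% at day 1, 10.2% at day 3, 29.2% at day 7, where 2 stand against 3, and 14% at day 14. Among the marker lists, satellite cell sums did not overlap between the genotypes at days 3 and 7, nor did mature myofibre sums at day 7. The other sums overlapped at both days, as did mature myofibre sums at day 3. At day 3 the 8 macrophage markers summed to 3280 to 3932 CPM in DTR and 3432 to 5502 CPM in WT muscle, with 2 of 8 higher in DTR. Neutrophil markers summed to 67.3 to 81.7 CPM in DTR and 60.9 to 138 CPM in WT muscle at that day, with 3 of 8 higher. At day 7 macrophage markers summed to 180 to 596 CPM in DTR and 210 to 363 CPM in WT muscle, with 4 of 8 higher, and neutrophil markers to 3.77 to 11.8 CPM in DTR and 7.09 to 27.1 CPM in WT muscle, with 2 of 8 higher. The 8 satellite cell markers were lower in DTR muscle without overlap on both days, as Nos2 was, summing to 667 to 796 CPM in DTR and 799 to 878 CPM in WT muscle at day 3, with 1 of 8 higher, and to 214 to 266 CPM in DTR and 327 to 355 CPM in WT muscle at day 7, with 4 of 8 higher. Mature myofibre markers were higher at day 7 without overlap, summing to 147348 to 160554 CPM in DTR and 120024 to 144742 CPM in WT muscle, with 5 of 8 higher. The part of all these markers in the Nos2 and Nos3 values was not tested.

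Libraries of sorted satellite cells at day 1 held Ass1 and little of the other members. Their 8 satellite cell markers summed to 4981 to 6233 CPM in DTR and 6214 to 6394 CPM in WT libraries. The 8 markers of fibro-adipogenic progenitors, another cell of the muscle interstitium, summed to 5459 to 7313 CPM in DTR and 3999 to 5242 CPM in WT libraries without overlap, 6 of 8 higher in DTR, and most of the sum was Dcn, at means of 4167 CPM in DTR and 2712 CPM in WT libraries. Their part in the Ass1 values was not tested. Ass1 had 41.2, 62.7 and 37.7 CPM in DTR cells, against 54.3, 62.3 and 63.4 CPM in WT cells. The groups overlapped, through the second DTR library, and the difference was −0.38 ± 0.24. GC content moved with this comparison as well, at a Spearman correlation of −0.33 with the log2 change across genes. Ass1, at 54.7% GC, was in the highest of 4 equal GC classes (54.2 to 73.7%). The median change of that class was −0.10, of the same sign as the Ass1 difference. The part of GC content in the Ass1 values was not tested. Nos2 was scattered over libraries, at 0.351, 0 and 0 CPM in DTR cells, against 1.83, 0 and 2.59 CPM in WT cells. Its 2 counts in DTR and 23 in WT cells gave a ratio of 0.0794 (0.00908 to 0.322), but 1 WT library was at 0 like 2 of the DTR libraries. Nos1 had 3.69, 1.28 and 0.166 CPM in DTR cells, against 1.65, 0.573 and 1.99 CPM in WT cells. The first DTR library, with the highest Nos1 level, also had 2924 CPM of summed mature myofibre markers, against 33.7 to 41.5 CPM in the WT libraries. Arg1 had 9 counts in each genotype, Arg2 had 37 in DTR and 20 in WT cells, and Nos3 was at most 0.765 CPM in any library. No member had groups that did not overlap, where 13.3% of all genes tested did. Ass1 was the 1 member that passed the filter on low counts, so that share does not cover the others.

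Vγ6 cells of injured muscle and colon differed in Arg1 and Ass1 in opposite directions. Trdc was at 1140 to 1216 CPM in the muscle libraries and 901 to 927 CPM in the colon libraries, so both sorts held γδ T cells. Arg1 had 7.66, 2.03 and 2.77 CPM in muscle Vγ6 cells, against 32.8, 38.3 and 31.9 CPM in colon Vγ6 cells. The difference was −3.14 ± 0.54, so that Arg1 was 8.83-fold lower in muscle Vγ6 cells, with no overlap and from 72 counts in muscle and 527 in colon. Ass1 had 76.5, 66.5 and 67.7 CPM in muscle Vγ6 cells, against 44.3, 25.6 and 30.7 CPM in colon Vγ6 cells. The difference was 1.09 ± 0.24, or 2.13-fold, and every muscle library was above every colon library. Per kilobase Ass1 averaged 41.4 CPM per kb in muscle Vγ6 cells, and Arg1 averaged 23.3 CPM per kb in colon Vγ6 cells.

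The remaining members were low in both sorts. Nos3 had 0.978, 0.185 and 2.38 CPM in muscle Vγ6 cells, against 3.07, 5.75 and 4.46 CPM in colon Vγ6 cells, a difference of −1.89 ± 0.72. Arg2 had 24 counts in muscle and 7 in colon Vγ6 cells, with a difference of 1.28 ± 0.57. Nos1 had 5 counts in muscle Vγ6 cells and 0 in colon Vγ6 cells, where 0 counts allow up to 0.197 CPM over the group. Nos2 had 7 counts in muscle and 3 in colon Vγ6 cells, a ratio of 2.14 (0.489 to 12.8), and was the 1 member whose groups overlapped. The other 5 did not overlap, where 39.7% of all genes tested did not, and 3 members, Nos3, Arg1 and Ass1, passed the filter on low counts. Nos1, Nos2 and Arg2 were not among the genes tested, so that share does not cover them.

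Markers of other cells were measured beside the Arg1 difference. The 8 macrophage markers summed to 5.15 to 16.8 CPM in muscle and 5.89 to 6.79 CPM in colon Vγ6 libraries, with 5 of 8 higher in muscle and Itgam at 0 in colon. Arg1 had 31.9 to 38.3 CPM in the colon libraries, and which cells it came from was not tested. Colon epithelium markers summed to 27.7 to 39.0 CPM in muscle and 34.1 to 41.6 CPM in colon libraries, with 4 of 8 higher in muscle. Of the lists for other cells, that of satellite cells summed to 51.4 to 85.3 CPM in muscle and 354 to 495 CPM in colon libraries, mostly through 1 gene, the syndecan Sdc4, whose mean was 67.9 CPM in muscle libraries, against 417 CPM in colon libraries. Fibro-adipogenic progenitor markers summed to 38.4 to 61.8 CPM in muscle and 189 to 258 CPM in colon libraries, with 4 of 8 higher in muscle and mostly through Ly6a, and so ran in the direction of Arg1. Endothelial markers summed to 153 to 169 CPM in muscle and 83.6 to 86.4 CPM in colon libraries, with 7 of 8 higher, in the direction of Ass1. The B cell markers summed to 117 to 158 CPM in muscle and 44.6 to 55.8 CPM in colon libraries. The part of these in the Arg1 and Ass1 values was not tested.

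**Figure D4:**
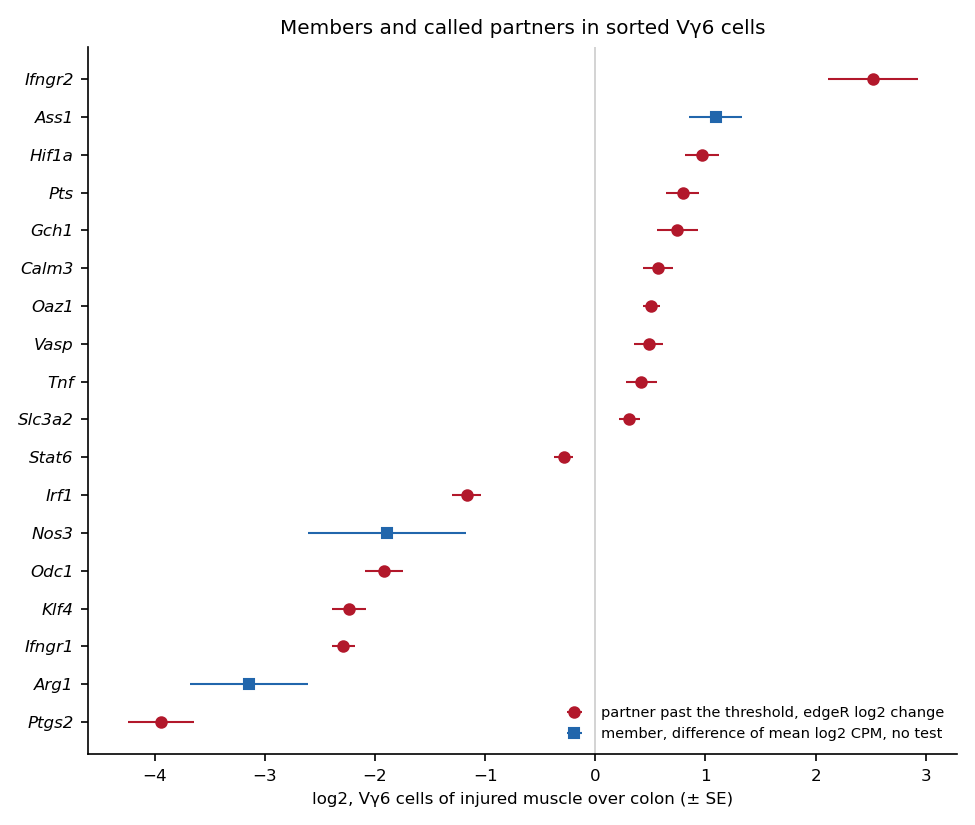
Change in Vγ6 cells of injured muscle against colon (log2, ± standard error, n = 3 each) for Arg1, Ass1 and Nos3 (blue, differences of mean log2 CPM, no test) and the 15 partners past the threshold (red, edgeR), with values right of 0 higher in muscle. Arg1 at −3.14 and Ass1 at 1.09 lie on opposite sides, and the polyamine enzyme Odc1 at −1.92 lies on the side of Arg1.

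The genes around the members were tested as 71 partners in 8 lists, chosen with earlier results of these data known: urea cycle, ornithine and polyamine enzymes, arginine transporters, tetrahydrobiopterin synthesis, regulators of the synthases, nitric oxide receptors and cyclic GMP signalling, and companions of Nos2 and of Arg1 in macrophages. The test was edgeR's quasi-likelihood test, adjusted by Benjamini-Hochberg over all genes tested, at 0.05. After rIL-17A 24 of the 58 partners tested passed, 10 higher and 14 lower, where 34.1% of all 12896 genes passed. The median partner change was −0.41, against 0.05 over all genes. With library totals alone the split was 12 higher and 9 lower. Without rIL-17A replicate 1 or 3 the test called 12 and 13 partners.

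Receptors and signalling genes were among those that rose after rIL-17A. All 3 cyclic GMP genes called, of 6 tested, rose. Gucy1b1, the haem-binding subunit of the nitric oxide receptor guanylate cyclase, had 7.85 ± 0.991 CPM in rIL-17A muscle and 0.537 ± 0.0495 CPM in PBS muscle (SD, n = 2 each), and rose by 3.67 ± 0.71 (edgeR adjusted p = 0.0021). The other two called in the list were Prkg1, the cyclic GMP dependent kinase, and its substrate Vasp. Of 6 transporters 1 was called: Slc7a2, the cationic amino acid transporter that macrophages induce with Nos2, rose by 1.31 ± 0.30 (edgeR adjusted p = 0.0054), with 45.8 ± 9.47 CPM in rIL-17A and 16.5 ± 4.45 CPM in PBS muscle. Slc7a1, its relative, was at 6.60 CPM in rIL-17A and 2.30 CPM in PBS muscle and did not pass.

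Regulators of the synthases mostly fell after rIL-17A where they changed, with 1 of 14 higher and 6 lower. Calm2, a calmodulin gene, fell by 1.97 ± 0.21 (edgeR adjusted p = 6.45e-05), with 137 ± 13.1 CPM in rIL-17A and 488 ± 73.5 CPM in PBS muscle. Dynll1, a dynein light chain that binds and inhibits Nos1, fell by 1.45 ± 0.26 (edgeR adjusted p = 0.00152). Prmt1, which makes the methylated arginines that inhibit synthases, rose by 1.497 ± 0.257 (edgeR adjusted p = 0.0011), with 86.3 ± 4.99 CPM in rIL-17A and 27.5 ± 6.88 CPM in PBS muscle. Of 6 tetrahydrobiopterin genes 2 fell, among them Pts, a synthesis enzyme, by 1.26 ± 0.27 (edgeR adjusted p = 0.0036). Gch1, the first enzyme of that synthesis, was at 3.12 CPM in rIL-17A and 2.97 CPM in PBS muscle and did not pass.

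On the ornithine side 2 of 8 genes rose and 3 fell after rIL-17A. Oat, which turns ornithine toward proline and glutamate, fell by 1.29 ± 0.22 (edgeR adjusted p = 0.00096). Oaz1, the antizyme that sends ornithine decarboxylase to degradation, fell by 1.03 ± 0.21 (edgeR adjusted p = 0.00294). Odc1, ornithine decarboxylase itself, fell by 1.02 ± 0.37 (edgeR adjusted p = 0.0477), but its groups overlapped, and it did not pass by DESeq2 (−1.04), with library totals alone (−0.88), without PBS replicate 1 (−0.43) or without either rIL-17A muscle. Srm, spermidine synthase, and Azin1, the antizyme inhibitor, rose. Of the companions of Nos2, 1 of 7 rose and 2 fell, among them Ifngr1, an interferon γ receptor chain, by 0.96 ± 0.21 (edgeR adjusted p = 0.00444). Of those of Arg1, 2 of 8 rose, Il4ra, the interleukin 4 receptor chain, and Hif1a, the hypoxia factor. Of 3 urea cycle and other arginine enzymes 1 fell, Gatm, which starts creatine synthesis from arginine, and Asl was at 17.9 CPM in rIL-17A and 26.1 CPM in PBS muscle and did not pass. The 10 higher partners had a median transcript length of 3973.5 bases and the 14 lower ones 2315.5 bases.

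Between DTR and WT muscle few partners were called. At day 7, 2 of 69 passed edgeR's test, where 2.01% of all genes did, and the median change was 0.33 against −0.02 over all genes. Dynll1 rose by 1.33 ± 0.24 (edgeR adjusted p = 0.00128), with 73.8 ± 13.4 CPM in DTR (SD, n = 2) and 33.8 ± 7.88 CPM in WT muscle (SD, n = 3). Prmt1 fell by 1.07 ± 0.23 (edgeR adjusted p = 0.00835), with 17.9 ± 2.79 CPM in DTR and 43.9 ± 2.09 CPM in WT muscle. Each moved the other way after rIL-17A, in muscles of other mice, and a link between the 2 comparisons was not tested. Over all genes with a length, the Spearman correlation of the log2 change with transcript length also differed in sign. It was −0.15 for DTR against WT muscle at day 7 and 0.34 after rIL-17A. Dynll1 no longer passed without DTR replicate 2, nor Prmt1 without either DTR muscle, and DESeq2 called 6 partners at day 7. The day 7 count was 0 without DTR replicate 2, 1 without DTR replicate 1 and 6 without WT replicate 1. At day 14, 1 of 69 passed, where 0.0767% of all genes did. Srm fell by 1.99 ± 0.34 (edgeR adjusted p = 0.00306), with 3.32 ± 1.25 CPM in DTR and 12.4 ± 1.88 CPM in WT muscle (SD, n = 3 each), and did not pass without DTR replicate 3 or with library totals alone.

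At days 1 and 3 edgeR's test called 0 of 69 partners, with 0 and 7 at an unadjusted p under 0.05, and DESeq2 called 0 at both days. It called 0% of all genes at either day as well, with 777 genes at day 1 and 873 at day 3 at an unadjusted p under 0.05, and DESeq2 called 0 and 2 genes. In satellite cells it called 0 of 57 partners, with 3 at an unadjusted p under 0.05 and 0 by DESeq2. There 0% of all genes passed edgeR's test, with 719 at an unadjusted p under 0.05, and DESeq2 called 11. Odc1 was high in these cells, at 331 CPM in DTR and 402 CPM in WT cells, as was Slc7a1, at 192 and 232 CPM in DTR and WT cells. Asl, which acts on the product of Ass1, was at 27.4 CPM in DTR and 33.3 CPM in WT cells.

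Over the 4 days most partners changed within each genotype. Of 69 partners 59 passed in DTR muscle, where 56.2% of all genes did, and 50 in WT muscle, where 53.7% did. The day of the highest mean depended on the scaling. In library-total CPM, 18, 29, 8 and 4 of the called partners in DTR muscle were highest at days 1, 3, 7 and 14, and 15, 26, 8 and 1 in WT muscle. With trimmed-mean scaling, an alternative chosen after seeing the data, the counts were 13, 17, 25 and 4 in DTR muscle and 15, 22, 12 and 1 in WT muscle, so that day 7 became the most frequent in DTR muscle. The highest day was the same under both for 40 of 59 called partners in DTR muscle and 44 of 50 in WT muscle. The levels that follow are library-total CPM. Of the called genes in the list of ornithine and polyamine enzymes and their regulators, 4 of 7 were highest at day 1 in DTR muscle and 2 of 6 in WT muscle. With trimmed-mean scaling these were 2 of 7 in DTR muscle and 3 of 6 in WT muscle, so the order of the genotypes depended on the scaling. Odc1 and Srm were highest at day 1, the day of Arg1, in both genotypes and under both scalings. Odc1 averaged 183, 59.6, 38.7 and 20.1 CPM at days 1, 3, 7 and 14 in DTR muscle (edgeR adjusted p = 8.88e-11), and 147, 64.0, 26.5 and 9.69 CPM in WT muscle (edgeR adjusted p = 4.59e-13). Srm averaged 113, 79.7, 11.9 and 3.32 CPM in DTR muscle and 118, 56.8, 7.32 and 12.4 CPM in WT muscle over the same days. Sms, spermine synthase, was highest at day 1 in DTR muscle and at day 7 in WT muscle, at 33.9 and 44.7 CPM, and at day 7 in both with trimmed-mean scaling.

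In other branches the highest days ranged over the whole course. Asl, the partner enzyme of Ass1, was highest at day 3 like Ass1, with 16.6, 41.9, 29.5 and 19.0 CPM in DTR muscle (edgeR adjusted p = 3.78e-05) and 18.4, 44.2, 19.8 and 19.5 CPM in WT muscle (edgeR adjusted p = 0.0217). Gatm was highest at day 3, at 75.9 CPM in DTR and 87.4 CPM in WT muscle. With trimmed-mean scaling both Asl and Gatm were highest at day 7 in DTR muscle, while they stayed highest at day 3 in WT muscle. Gamt, the next enzyme, was highest at day 7, at 175 CPM in DTR and 127 CPM in WT muscle. Slc7a7, an arginine exporter, was highest at day 3, at 40.9 CPM in DTR and 63.4 CPM in WT muscle, and Slc7a2 at day 14, at 39.1 CPM in DTR and 46.3 CPM in WT muscle. Gch1 was highest at day 1, at 12.04 CPM in muscle labelled DTR and 12.5 CPM in WT muscle. The DTR and WT time courses were tested separately, and differences between them were not tested beyond the day-wise comparisons.

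**Figure D5:**
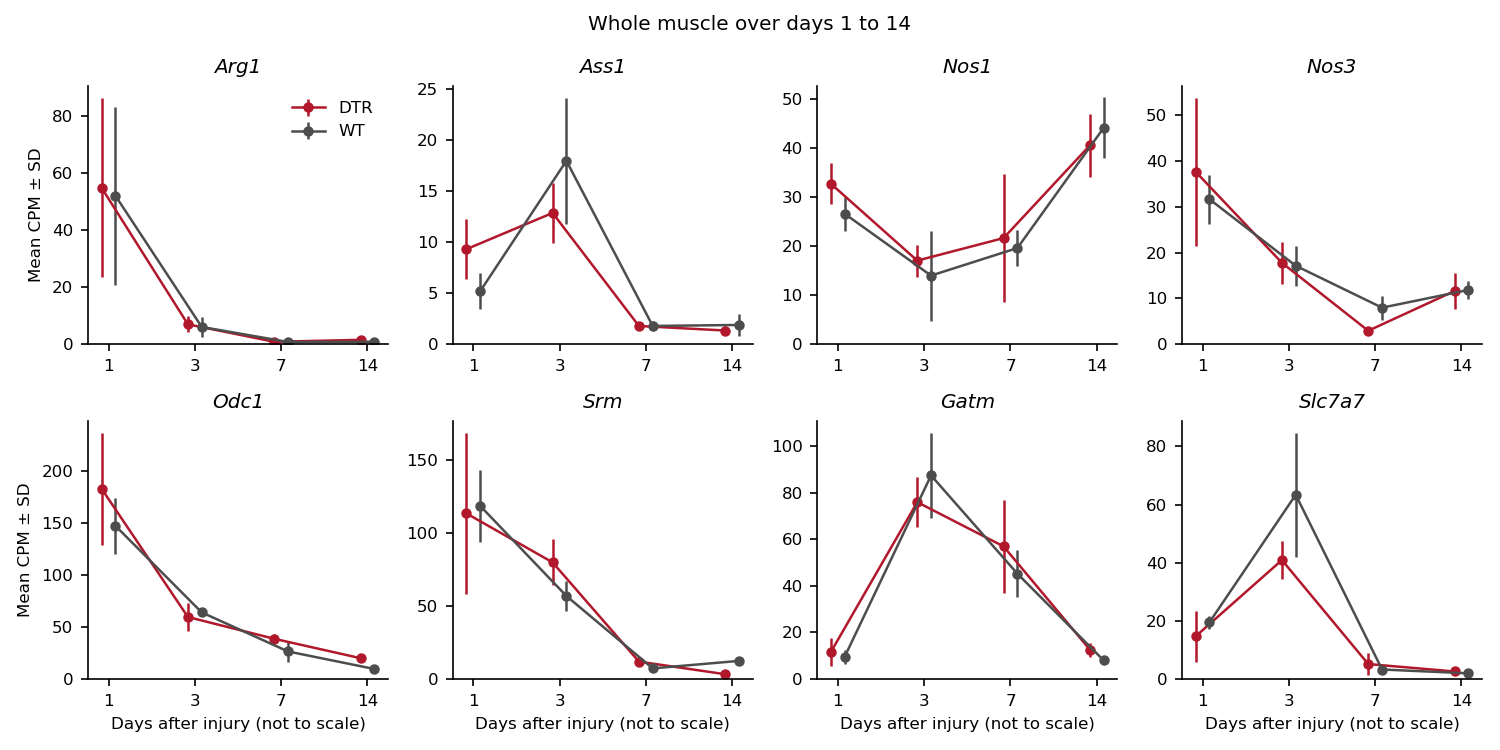
Mean level ± SD in CPM (linear axes) at days 1, 3, 7 and 14 after injury, days not to scale, in DTR muscle (red, left of each pair) and WT muscle (grey), n = 3 per point and 2 for DTR at day 7, for Arg1, Ass1, Nos1 and Nos3 and the partners Odc1, Srm, Gatm and Slc7a7. Arg1, Odc1 and Srm start high at day 1, Ass1, Gatm and Slc7a7 are highest at day 3 (Gatm in DTR muscle at day 7 with trimmed-mean scaling), and Nos1 at day 14.

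In Vγ6 cells 15 of 42 partners passed edgeR's test, 9 higher and 6 lower in injured muscle than in colon, where 24.5% of all 11907 genes passed. The median partner change was −0.05, against −0.01 over all genes. Odc1, which acts on the product of Arg1, fell by 1.92 ± 0.18 (edgeR adjusted p = 9.5e-06), with 81.6 ± 14.3 CPM in muscle Vγ6 cells, against 302 ± 67.5 CPM in colon Vγ6 cells (SD, n = 3 each). Its antizyme Oaz1 rose by 0.51 ± 0.07 (edgeR adjusted p = 0.000123). Ptgs2, the inducible prostaglandin synthase, fell by 3.94 ± 0.30 (edgeR adjusted p = 2.18e-07), and Klf4, a transcription factor, fell by 2.23 ± 0.15 (edgeR adjusted p = 5.54e-08). Among genes listed as companions of Nos2, Ifngr1 fell by 2.29 ± 0.11 (edgeR adjusted p = 8.13e-10) and Irf1 by 1.17 ± 0.13 (edgeR adjusted p = 1.45e-05), whereas Ifngr2, the other receptor chain, rose.

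Of 5 tetrahydrobiopterin enzymes tested in these cells 2 passed, both higher in muscle like Ass1, with a list median of 0.21. Pts rose by 0.79 ± 0.15 (edgeR adjusted p = 0.00113), with 75.3 ± 7.39 CPM in muscle Vγ6 cells, against 42.4 ± 5.17 CPM in colon Vγ6 cells. Gch1 rose by 0.74 ± 0.19 (edgeR adjusted p = 0.00826), with 52.8 ± 3.70 CPM in muscle Vγ6 cells, against 31.1 ± 7.09 CPM in colon Vγ6 cells. Hif1a rose by 0.97 ± 0.15 (edgeR adjusted p = 0.000252). Neither Asl, at 51.1 CPM in muscle against 67.9 CPM in colon Vγ6 cells, nor Slc7a1, at 91.1 against 96.7 CPM, passed. Slc7a2 was under 1 CPM in both.

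The genes whose log2 levels ran most like each member over the 27 whole-muscle libraries were listed by Pearson correlation, as a description over libraries that share days and groups. Nos2 ran most like Hspg2, the basement membrane proteoglycan perlecan, at 0.909, and Ap2a1, a clathrin adaptor subunit, at 0.906. Nos1 ran most like Rps6ka2, a ribosomal S6 kinase, at 0.889, and Mfn2, a mitochondrial fusion protein, at 0.877. Nos3 ran most like the kinase genes Pim3, at 0.923, and Mast4, at 0.920. Arg1 ran most like Sertad1, a transcriptional coregulator, at 0.954, and Ppp1r15a, the stress-induced phosphatase subunit GADD34, at 0.949. Ass1 ran most like Ptpn7, a tyrosine phosphatase of blood cells, at 0.955, and Nap1l1, a histone chaperone, at 0.954. By Spearman correlation the 4 closest genes shared 1 of 4 with these lists for Nos1, Nos2 and Arg1 and 0 for Nos3 and Ass1. Arg2 averaged under 1 CPM and was not listed.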

How the data were processed

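RNA from whole muscle (2 ng per library) or 1000 sorted cells was sequenced by the submitters. The deposited table holds the authors' whole-number counts per gene symbol, not normalized; per the submitters' processing notes, the tools were STAR 2.7.3a and featureCounts (Subread 2.0.0), on mm10, and no strand setting is given. The 6 members, the partner lists and the marker lists were chosen with earlier results of these data known. The closest pair of replicates had a chi-square of 3.43 per degree of freedom over genes, above sampling noise, so none was counted as a duplicate.

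Genes were tested with edgeR 4.0.16 (quasi-likelihood, TMM, the trimmed-mean scaling named in the text; genes kept by a minimum count of 10 and total of 15), with all time-course muscles in 1 fit and a separate fit for each other pair of groups; DESeq2 1.42.0 was an alternative. R 4.3.3, Python 3.11.15 and blastn 2.17.0 were used. The named partners were the 8 of smallest p among those called in each comparison, and Asl, Odc1, Slc7a1, Slc7a2 and Gch1 always. Log2 values of members add 2 counts and use library totals. The tests were also run on simulated counts with a fixed spread between libraries and no trend with transcript length. That setting is simpler than the data, and its outcome is not given here. In no comparison was the correlation of every same-numbered pair of replicates over 0.1, so numbers were not used as a block in the reported tests. Single pairs did deviate together. For DTR with WT muscle, day 1 gave 0.07, 0.31 and −0.02 for replicates 1, 2 and 3, and day 7 gave 0.08 and 0.14 for replicates 1 and 2.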

Additional observations from a re-analysis of the deposited data

How the results depend on the processing

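Counts of called partners kept within 1.5 times of the reported ones under every alternative run, except those given here. In DTR against WT muscle, DESeq2 called 6 partners at day 7, library totals alone gave 0 at day 14, and leaving out single replicates gave 0 to 6 at day 7 and 0 to 1 at day 14. Leaving out single replicates gave 12 to 26 after rIL-17A, 13 to 15 in Vγ6 cells, 53 to 60 over time in DTR muscle and 44 to 51 in WT muscle. Satellite cells had 1 call with no filter on low counts. With the replicate block the counts were 0, 0, 2 and 1 at days 1, 3, 7 and 14, 22 after rIL-17A, 0 in satellite cells, 17 in Vγ6 cells, and 49 and 40 over time in DTR and WT muscle. The rIL-17A and PBS libraries of the same number deviated in opposite directions (correlation −0.12), and a crossed replicate block, chosen after seeing the data, called 27.

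Low counts make values depend on the prior: with 0.5 counts in place of 2, the log2 difference of Nos2 was −3.05 at day 7 and 6.68 after rIL-17A. The day 7 Nos1 difference ran between −0.63 and 0.66 as single libraries were left out. The cause of each change was not tested.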

Other observations

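Wild-type muscle at day 7 was measured under 2 regimens whose libraries were not compared in the design, with diphtheria toxin in the time course and with PBS beside rIL-17A. Nos2 was at 1.28, 2.69 and 1.72 CPM in the toxin-treated wild-type muscles and at 0 and 0.143 CPM in the PBS muscles. Nos1 was at 15.6, 20.6 and 22.6 CPM in the toxin-treated and at 5.40 and 7.01 CPM in the PBS muscles. Nos3 was at 5.40, 10.6 and 7.92 CPM in the toxin-treated and at 5.65 and 1.57 CPM in the PBS muscles, and overlapped. The rIL-17A muscles, at 15.1 and 14.4 CPM of Nos2, were above both. The day 7 DTR muscles, at 0.105 and 0.182 CPM of Nos2, were near the PBS muscles, which held 17 Trdc counts. Nos3 in these DTR muscles, at 3.25 and 2.64 CPM, lay between the 2 PBS muscles. Olfactory and vomeronasal receptor genes summed to 260 to 1335 CPM in the toxin-treated wild-type muscles and 11.7 to 14.2 CPM in the PBS muscles. Genes with a count numbered 22417 to 34392 in the toxin-treated and 16951 to 18162 in the PBS muscles. The part of either in the Nos2, Nos1 and Nos3 values was not tested. Regimen and preparation cannot be told apart here.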
